A study of Arabidopsis thaliana with 6 samples.

Results

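Alternative oxidases, alternative NAD(P)H dehydrogenases, the mitochondrial stress gene *UPOX* and the NAC factors *NAC013* and *NAC017* were compared between *naa20* and wildtype seedlings on dithiothreitol (DTT). The genes were given as a list of 10 loci, drawn up with earlier results of these data known, and all 10 were among the 27827 probe sets of the arrays. RNA came from whole seedlings of *Arabidopsis thaliana* Col-0 and of *naa20-1* (SALK_027687), a single T-DNA insertion line in the Col-0 background that is depleted of the catalytic subunit of the N-terminal acetyltransferase NatB. Both genotypes grew under short days on MS medium, were moved at day 2 to medium with 2 mM DTT, a reducing agent, and were harvested at 17 days. Each genotype had 3 arrays, which the labels describe as pools of seedlings and a figure legend of the study as individual plants. That legend adds that the 3 samples per condition were selected from a larger number by the integrity and purity of their mRNA. Seedlings without DTT were not analysed here, so no value gives an effect of DTT. For long treatments the methods have *naa20* seeds start on control medium, and where this was done here, genotype and the start of DTT cannot be told apart.

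Alternative respiration is a set of routes through the plant mitochondrial electron transport chain that do not pump protons. Alternative oxidases take electrons from ubiquinol to oxygen and bypass complexes III and IV, and the type II NAD(P)H dehydrogenases feed electrons from NAD(P)H to ubiquinone and bypass complex I. In *Arabidopsis* the transcripts of several of these genes are known to rise when mitochondria are disturbed, through the transcription factors NAC013 and NAC017, which are held in the endoplasmic reticulum membrane and move to the nucleus once released.

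The signals are log2 values after RMA background correction and quantile normalization, so 1 unit is a 2-fold difference and the level of 1 gene was not set against that of another, except as a difference within arrays that was compared between genotypes. All differences are *naa20* minus wildtype. A gene passed the threshold with an adjusted p under 0.05 (limma, Benjamini-Hochberg over all probe sets) and at least a 2-fold difference. The targeted transcript *NAA20* (AT1G03150) had signals of 7.44, 6.98 and 7.54 in *naa20* and of 8.69, 8.56 and 8.83 in wildtype, a difference of -1.38 (standard error 0.16, adjusted p = 0.000689), and thus remained measurable in the mutant. In an exact two-sided permutation test 3 arrays against 3 cannot go below p = 0.1, and p values measure only the spread between these samples. Because whole seedlings were measured, fewer cells of a type and less RNA per cell cannot be told apart. Marker lists moved with the genotype. For comparison, 4.95% of all probe sets passed as higher and 4.97% as lower, and 17.4% were lower with an adjusted p under 0.05. Of 12 root markers 9 passed the threshold as lower in *naa20*, with a log2 summed signal of 10.15 to 10.44 against 12.21 to 12.44 in wildtype. Of 8 mesophyll markers 1 passed as lower (15.93 to 16.05 against 16.29 to 16.35), and 6 were lower with an adjusted p under 0.05 at any fold. *RBCS1A* had the same signal on all 6 arrays, and without it the mesophyll sum was 15.42 to 15.59 against 15.92 to 15.99. Of 8 leaf senescence markers 4 passed as higher (11.59 to 11.93 against 10.63 to 10.96). These were *SAG13* with 6.04, *WRKY53* with 1.30, *NYE1* with 1.15 and *PAO* with 1.06, and *SAG12*, a marker of late senescence, had signals of 2.73 to 2.87 in *naa20* and of 2.57 to 2.91 in wildtype. The lowest of the 8 was *SEN1* with -0.25 (adjusted p = 0.498 from limma). *ORE1* with 0.78 and *NAP* with 0.23 overlapped between the genotypes, as did *SEN1*. Of 8 salicylic acid markers 6 passed as higher (11.27 to 11.58 against 8.82 to 9.02). The part of these lists in the differences reported here was not tested.

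Of the 10 genes, *AOX1D* and *AOX1A* were higher in *naa20* and *NDA1* was lower past the threshold. This is 2 higher, where 4.95% of all probe sets passed as higher, and 1 lower, where 4.97% passed as lower. At any fold an adjusted p under 0.05 was found for 5 higher genes (16.6% of all probe sets) and 1 lower gene (17.4%). All *naa20* arrays lay above all wildtype arrays for 6 genes (23.4% of all probe sets) and below them for *NDA1* alone (24.1%). The median difference of the 10 genes was 0.39, against -0.0039 over all probe sets. The differences ran in both directions, from -1.63 to 4.66.

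**Figure D1:**
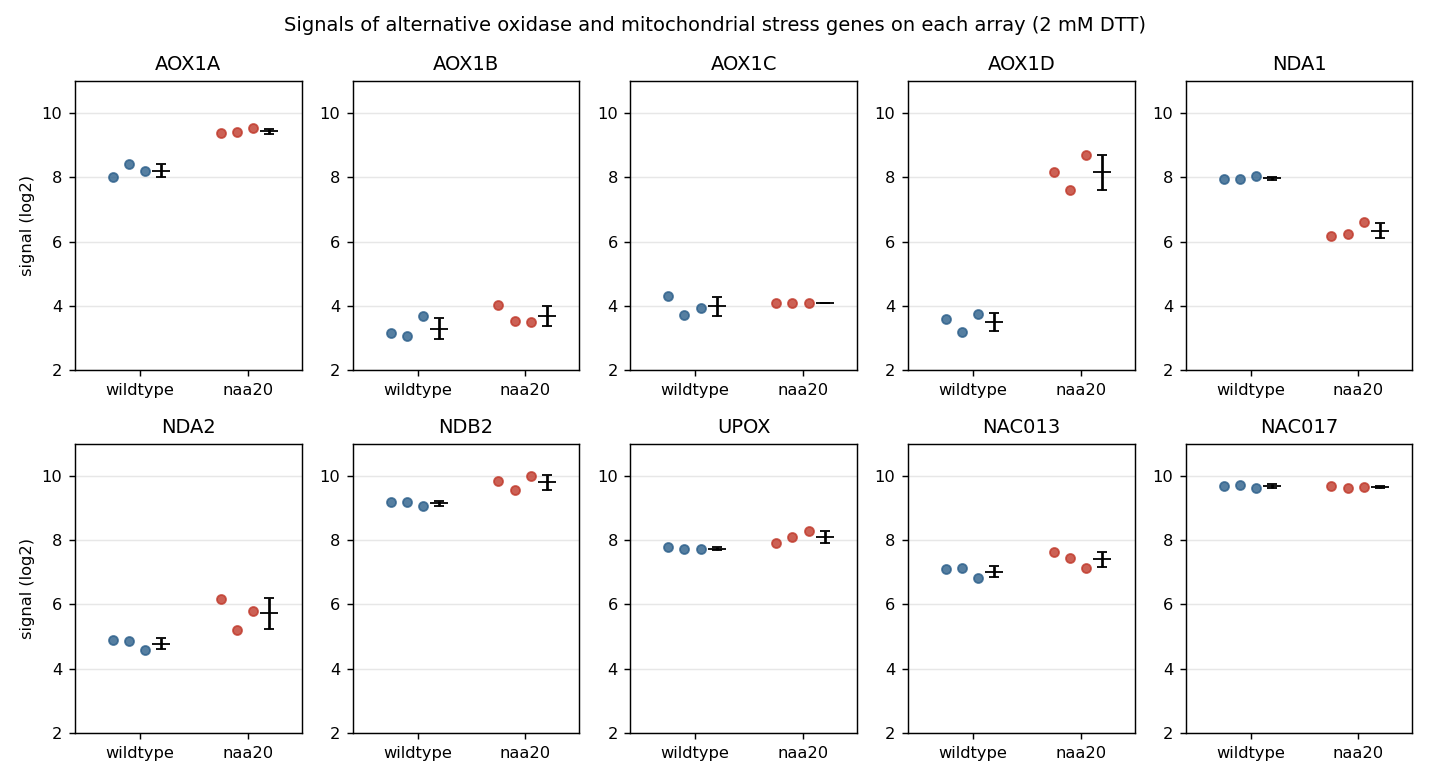
Log2 signal (y axis) of each gene on the 3 wildtype (blue) and 3 *naa20* (red) arrays, with the mean and SD in black. *AOX1D* lies between 3.18 and 3.74 in wildtype and between 7.61 and 8.70 in *naa20*, while the signals of *NAC017* lie between 9.61 and 9.72 on all arrays.

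*AOX1D* (AT1G32350), an alternative oxidase isoform, differed most. Its signals were 3.58, 3.18 and 3.74 on the wildtype arrays and 8.17, 7.61 and 8.70 on the *naa20* arrays. The lowest *naa20* signal was thus far above the highest wildtype signal, and the *naa20* arrays also spread more (SD 0.55 against 0.29). The difference was 4.66 (standard error 0.28, adjusted p = 5.26e-05 from limma, higher on 3 of 3 arrays), or 25.4-fold with a 95% interval of 16.1- to 39.9-fold. It ranked 17 of 27827 from the highest, and lay between 4.39 and 4.94 with any 1 array left out. In wildtype the mean of *AOX1D* lay at percentile 22.2 of all probe sets, in the low range where background contributes most to a signal, so that its fold difference is less certain than its direction.

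*AOX1A* (AT3G22370), the isoform best known for its induction by mitochondrial inhibitors, had signals of 8.004, 8.43 and 8.21 in wildtype and of 9.38, 9.42 and 9.53 in *naa20*. The groups did not overlap and the *naa20* arrays lay close together (SD 0.08). The difference was 1.23 (standard error 0.12, adjusted p = 0.000377 from limma), or 2.34-fold with an interval of 1.91- to 2.87-fold. *AOX1B* (AT3G22360), the tandem neighbour of *AOX1A*, had signals of 3.15, 3.06 and 3.68 in wildtype and of 4.03, 3.52 and 3.50 in *naa20*, which overlap. Its difference was 0.39 with a 95% interval from -0.11 to 0.88 (adjusted p = 0.208 from limma). *AOX1C* (AT3G27620) had signals of 4.32, 3.73 and 3.93 in wildtype and of 4.09, 4.08 and 4.102 in *naa20*. Here the *naa20* arrays lay within the wildtype range, and the difference was 0.10 with an interval from -0.26 to 0.45 (adjusted p = 0.671 from limma). Both *AOX1B* and *AOX1C* lay at a low mean signal (percentiles 21.8 and 28.3 of all probe sets), where a change could go undetected. The isoforms resemble each other in sequence, and whether their probes share signal was not tested.

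Among the alternative NAD(P)H dehydrogenases the directions differed. *NDA1* (AT1G07180), an internal dehydrogenase facing the mitochondrial matrix and known for its light-dependent transcript, had signals of 7.94, 7.95 and 8.03 in wildtype and of 6.17, 6.24 and 6.62 in *naa20*. The groups did not overlap, and wildtype was 3.10-fold higher. The difference was -1.63 (standard error 0.13, adjusted p = 0.000152 from limma), with a 95% interval from -1.94 to -1.32. *NDA2* (AT2G29990), the second internal dehydrogenase, had signals of 4.89, 4.86 and 4.59 in wildtype and of 6.15, 5.21 and 5.79 in *naa20*. Every *naa20* array was above every wildtype array, but the *naa20* arrays spread widely (SD 0.48). Its difference of 0.94 (interval 0.40 to 1.48, adjusted p = 0.0179 from limma) stayed under the 2-fold threshold. Without the second *naa20* array it was 1.19 and passed (adjusted p = 0.00327 from limma), and without the third *naa20* or the third wildtype array adjusted p was 0.0511 and 0.0528. *NDB2* (AT4G05020), an external dehydrogenase facing the intermembrane space, had signals of 9.20, 9.19 and 9.05 in wildtype and of 9.84, 9.56 and 10.01 in *naa20*. These groups were also separate, with a difference of 0.65 (interval 0.35 to 0.96, adjusted p = 0.00725 from limma), or 1.57-fold.

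*UPOX* (AT2G21640), a small mitochondrial protein gene named for its induction by oxidative stress, had signals of 7.79, 7.72 and 7.71 in wildtype and of 7.90, 8.11 and 8.27 in *naa20*. The gap between the groups was narrow. The difference was 0.36 (interval 0.09 to 0.62, adjusted p = 0.0455 from limma), or 1.28-fold. With a block for the replicate number adjusted p was 0.0647, and it was between 0.0913 and 0.119 without any 1 array other than the first *naa20* array.

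Neither NAC factor passed the threshold. *NAC017* (AT1G34190), regarded as the main regulator of the mitochondrial stress response, had signals of 9.69, 9.72 and 9.61 in wildtype and of 9.69, 9.63 and 9.65 in *naa20*. The difference was -0.02 and its 95% interval, from -0.21 to 0.18, holds no 2-fold difference in either direction (adjusted p = 0.903 from limma). *NAC013* (AT1G32870), which acts on the same target motif and is itself a target, had signals of 7.11, 7.12 and 6.83 in wildtype and of 7.62, 7.44 and 7.15 in *naa20*. The third array was the lowest in both genotypes. The groups were separate by a small gap, with a difference of 0.38 (interval 0.04 to 0.73, adjusted p = 0.0886 from limma). With that block *NAC013* had an adjusted p of 0.027, and without the third *naa20* array the difference was 0.51 with an adjusted p of 0.0309. Transcript signals do not measure the release of these membrane-bound proteins.

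**Figure D2:**
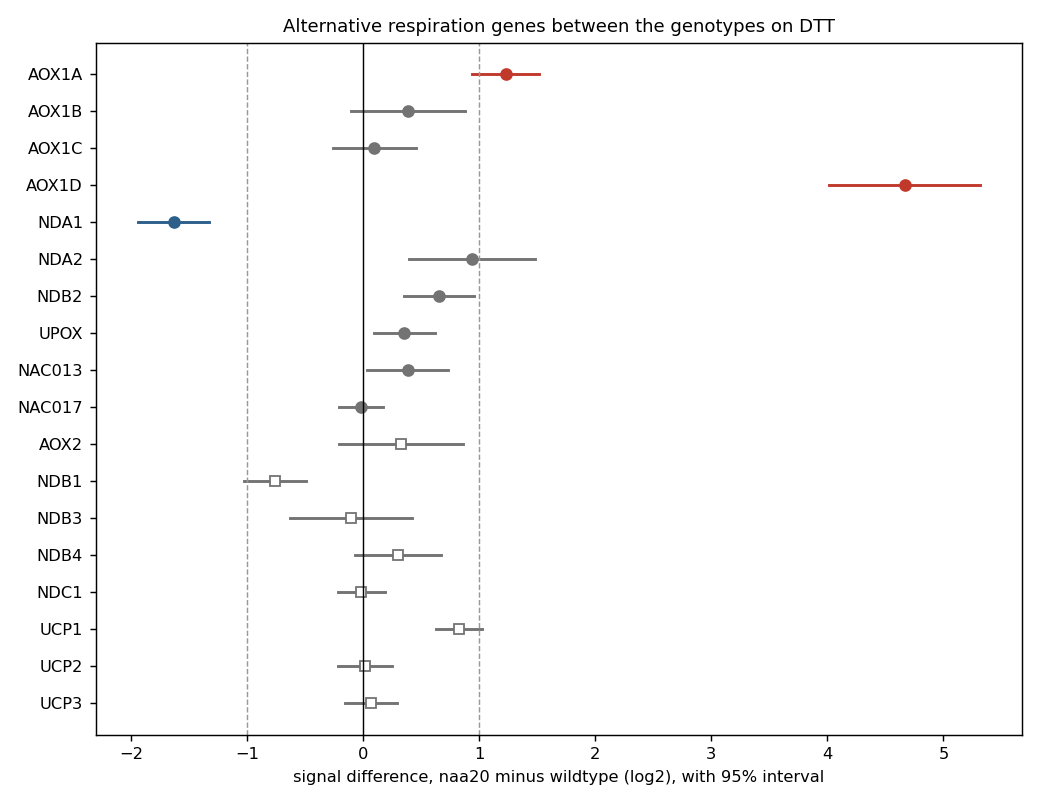
Difference in log2 signal, *naa20* minus wildtype (x axis), with the 95% interval from limma, for the 10 genes (filled circles) and for other alternative respiration genes and uncoupling proteins (open squares). Red passed the threshold as higher and blue as lower, and dashed lines mark 2-fold; *AOX1D* at 4.66 and *NDA1* at -1.63 are the extremes.

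Pairs of related genes were set against each other within each array, after their values had been seen, by an exact two-sided permutation test with Benjamini-Hochberg adjustment over 4 pairs. *AOX1D* minus *AOX1A* was -1.80 to -0.83 in *naa20* and -5.25 to -4.42 in wildtype, an unequal change of 3.44. *NDA2* minus *NDA1* was -1.03 to -0.02 in *naa20* and -3.45 to -3.05 in wildtype, an unequal change of 2.57. Neither pair overlapped between the genotypes (exact p = 0.1, the smallest possible, adjusted p = 0.133), but 0.05 is out of reach for 3 arrays against 3. *AOX1A* minus its neighbour *AOX1B* was 5.35, 5.89 and 6.03 on *naa20* arrays 1 to 3 and 4.86, 5.37 and 4.53 on wildtype arrays 1 to 3. The genotypes overlapped over all arrays, while within each replicate number *naa20* was higher. The unequal change was 0.84 (exact p = 0.2, adjusted p = 0.2, both without regard to the replicate number).

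The chromosomal neighbours were measured as well, and 36 genes lay within 2 measured positions of these genes in the order of the reference annotation. Of these, 1 passed the threshold as higher and 2 as lower. Over all probe sets 4.95% passed as higher and 4.97% as lower, so these counts are close to the general shares. Beside *AOX1D*, *NHL8* (AT1G32340) differed by 0.61 (adjusted p = 0.0038 from limma) and AT1G32360 by -0.24, and none of the 4 measured neighbours passed the threshold. Beside *NDA1* the neighbours lay between -0.26 and 0.12. Beside *NDA2*, *FAD3* (AT2G29980), a fatty acid desaturase of the endoplasmic reticulum, went the other way with -1.13 (adjusted p = 0.000112 from limma). The third neighbour past the threshold was *GBSS1* (AT1G32900), a granule-bound starch synthase near *NAC013*, with -1.26 (adjusted p = 0.00686 from limma).

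The neighbour past the threshold as higher was *NAC016* (AT1G34180), a close relative of *NAC017* with a role in leaf senescence. Its signals were 5.54, 5.52 and 5.67 in wildtype and 7.69, 7.53 and 7.64 in *naa20*. The difference was 2.04 (standard error 0.09, adjusted p = 2.3e-05 from limma), or 4.12-fold, while its neighbour *NAC017* differed by -0.02. Within arrays *NAC016* minus *NAC017* was -2.10 to -1.99 in *naa20* and -4.20 to -3.94 in wildtype (exact p = 0.1, the smallest possible, adjusted p = 0.133 over the 4 pairs).

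**Figure D3:**
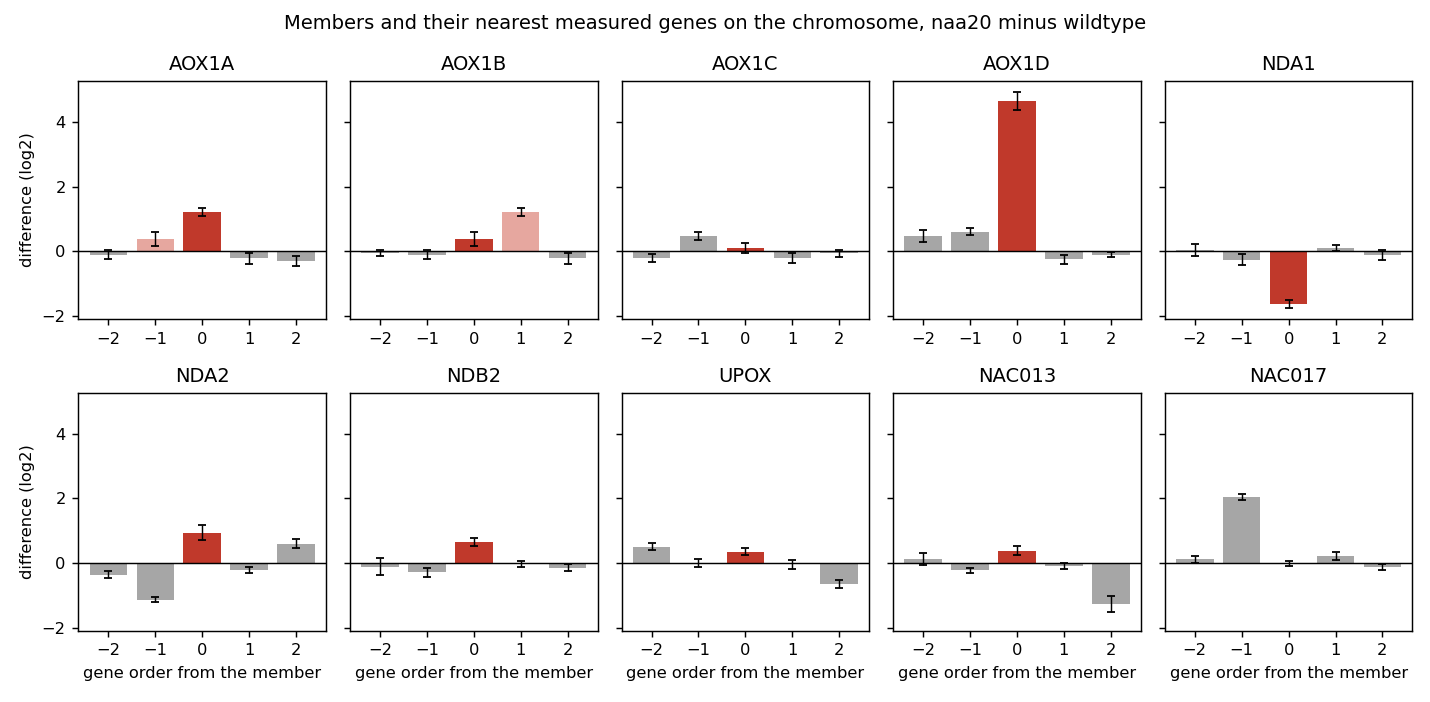
Difference in log2 signal, *naa20* minus wildtype (y axis, bars with standard errors from limma), of each gene (red, position 0) and of the nearest 2 measured genes on each side (grey, or pale red where the neighbour is another of the 10 genes), in order along the chromosome (x axis). *AOX1D* at 4.66 stands beside neighbours between -0.24 and 0.61, and *NAC016* at 2.04 stands beside *NAC017* at -0.02.

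The remaining genes of alternative respiration held no gene past the threshold (0 of 5, against 4.95% higher and 4.97% lower over all probe sets). *NDB1* (AT4G28220), an external dehydrogenase with a preference for NADPH, had signals of 8.004, 8.10 and 7.83 in wildtype and of 7.20, 7.36 and 7.10 in *naa20*. It was lower by a separate but less than 2-fold difference of -0.76 (adjusted p = 0.00195 from limma). *AOX2* (AT5G64210) was at the other end with 0.33 (adjusted p = 0.32 from limma) and overlapping groups. Of 3 uncoupling proteins, carriers that let protons back into the matrix, *UCP1* (AT3G54110, also *PUMP1*) was higher by 0.83 on 3 of 3 arrays (adjusted p = 0.000373 from limma), short of 2-fold, and *UCP2* (AT5G58970) differed by 0.02.

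Other genes listed for the response to mitochondrial dysfunction were often higher in *naa20*. Of 6 genes counted, 3 passed the threshold, all as higher (4.95% of all probe sets). The median difference was 1.20 against -0.0039 over all probe sets. Counting all 12 listed loci, 6 passed as higher and none as lower, and the median difference was 0.95. Against this direction, *AT12CYS-2* (AT5G09570) was lower by less than 2-fold, with -0.73 and separate arrays (adjusted p = 0.00596 from limma). *OM66* (AT3G50930, also *BCS1*), an AAA protein of the outer mitochondrial membrane, had signals of 3.71, 3.50 and 3.98 in wildtype and of 6.30, 5.21 and 6.01 in *naa20*. It did not overlap, and the difference was 2.11 (standard error 0.28, adjusted p = 0.00111 from limma). The others were the glucosyltransferase gene *UGT74E2* (AT1G05680) with 1.57 and the sulfotransferase gene *SOT12* (AT2G03760) with 1.55. The adjusted p of *UGT74E2* was 0.00882 from limma and 0.067 with the ordinary variance of the gene, while *CRF6* (AT3G61630), an ethylene response factor, was the lowest of the 6 with -0.30 (adjusted p = 0.224 from limma). *OM66* and *SOT12* also respond to salicylic acid, and 6 of 8 salicylic acid markers were higher in *naa20* as given above. Whether the differences of these genes are linked to those of the markers was not tested.

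Among 12 other genes listed as regulators of mitochondrial signalling, 4 passed as higher (4.95% of all probe sets) and 1 as lower (4.97%). Their median difference was 0.32. Besides *NAC016* the higher ones were WRKY genes. *WRKY40* (AT1G80840), in *Arabidopsis* a repressor of genes that respond to mitochondrial and chloroplast dysfunction, had signals of 7.24, 6.60 and 6.22 in wildtype and of 9.09, 8.92 and 10.29 in *naa20*, a difference of 2.74 (adjusted p = 0.00186 from limma) with separate but widely spread groups. *WRKY63* (AT1G66600) differed by 1.57 and *WRKY15* (AT2G23320) by 1.33. The wildtype mean of *WRKY63* lay at percentile 7.96 of all probe sets, so its fold difference is less certain than its direction. Without the 25% lowest probe sets *WRKY63* was not tested, and 3 of the listed regulators passed as higher. *MYB29* (AT5G07690), known for aliphatic glucosinolate synthesis and described as a negative regulator of *AOX1A*, was lower in *naa20* by -1.93 (adjusted p = 0.000145 from limma), with signals of 9.03, 8.97 and 9.45 in wildtype and of 7.12, 7.40 and 7.12 in *naa20*.

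All 13 named chaperone and protease genes had a difference above 0, with a median of 0.27, but an adjusted p under 0.05 was found for 4 and only the protease gene *LON1* (AT5G26860) passed the threshold, with 1.03 (adjusted p = 0.000383 from limma). Without the third *naa20* or the third wildtype array *LON1* fell short of 2-fold and 0 genes of the list passed. Of 17 named nuclear genes for subunits of complexes I to IV and cytochrome c, all had a difference above 0 (median 0.34), 9 had an adjusted p under 0.05 and 2 passed the threshold. These 2 were *SDH1-1* (AT5G66760), a flavoprotein subunit of succinate dehydrogenase, with 1.28 (adjusted p = 0.000564 from limma), and *CYTC-2* (AT4G10040), a cytochrome c gene, with 1.27 (adjusted p = 0.000281 from limma). *GAMMA CA1* (AT1G19580), of complex I, was lowest of the 17 with 0.02. Counting all 30 listed loci, 29 had a difference above 0 and 3 passed. Of 10 genes for other electron donors to ubiquinone or cytochrome c, none passed the threshold, and they ranged from -0.09 in *PRODH1* (AT3G30775) to 0.76 in *ETFA* (AT1G50940), a subunit of the electron transfer flavoprotein. An adjusted p under 0.05 was found for 4 of these 10. Over all probe sets 13777 of 27827 had a difference above 0. There 4.95% passed as higher, and 16.6% were higher with an adjusted p under 0.05.

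**Figure D4:**
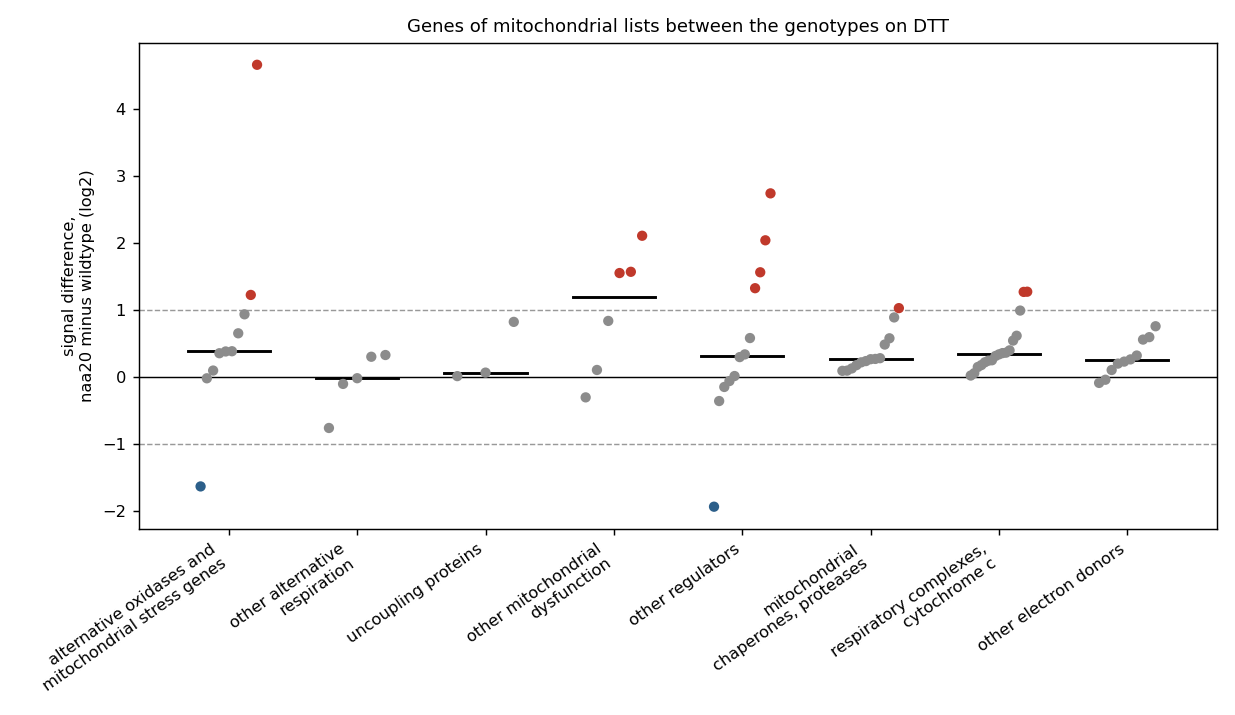
Difference in log2 signal, *naa20* minus wildtype (y axis), of each named gene in the mitochondrial lists (x axis), in order of size within a list, with the median as a black bar and dashed lines at 2-fold. Red passed the threshold as higher and blue as lower; the 10 genes range from -1.63 to 4.66, and the subunits of the respiratory complexes and cytochrome c from 0.02 to 1.28.

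Genes whose 6 signals followed those of *AOX1A* most closely were *MAP3KA* (AT1G53570), *GAD4* (AT2G02010), *CCD8* (AT4G32810), *AR791* (AT1G52080) and AT2G07752, with Pearson correlations between 0.995 and 0.999 over the 6 arrays. This is a description only, as the arrays fall into 2 genotypes and 1632 loci reached more than 0.95. None of the 10 genes was among these 5. Their differences ranged from 0.34 in *MAP3KA*, a mitogen-activated protein kinase kinase kinase gene, to 2.06 in *GAD4*, a glutamate decarboxylase gene.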

How the data were processed

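The authors hybridized RNA of 6 samples to Affymetrix Arabidopsis Gene ST arrays and deposited log2 signals, background corrected and quantile normalized by RMA, with a value for each gene of a custom annotation (Custom CDF version 16, based on TAIR). Whether arrays without DTT were normalized with these is not given in the sources used here. The sorted values of all 6 arrays are identical (1.75 to 14.6, median 6.12), and the signals were used as deposited, without a filter. Detection of single probes was not examined.

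Genotypes were compared over 27827 probe sets by lmFit and eBayes of limma 3.58.1 (R 4.3.3). Single values were also set against each other by exact permutation (scipy 1.17.1, two-sided). With 3 arrays per genotype, array number limits precision.

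The genes and lists were chosen with earlier results of these data known. The lists hold 135 loci, of which the 114 named in a RefSeq gene table (TAIR10.1), in the study or in the choice of genes were counted. Chosen for naming were the 10 genes, *NAA20* and *NAA25* (AT5G58450, the auxiliary NatB subunit, difference -0.13, adjusted p = 0.345 from limma). Also chosen were the extremes of each list and its genes past the threshold, up to 8, and the 5 loci closest to *AOX1A*. Not all of these are printed, and most genes of the marker lists are left out. *NDB1* is such an extreme. *SAG12* and the chromosomal neighbours were named after their values were seen, and *AT12CYS-2* (AT5G09570) and AT2G41730 were named outside this rule. Marker lists were summed on the linear scale. Promoter motifs and protein N-termini were not analysed here.

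Across genes, deviations from the genotype means correlated by 0.176, 0.19 and 0.385 between arrays of equal replicate number. All are over the limit of 0.1, so a block for the replicate number was fitted as another setting, although the labels do not say what a number shares. Arrays 1 and 2 also correlated across numbers (0.174 and 0.145). Both values are over the same limit, so for arrays 1 and 2 the limit does not single out equal numbers. Array 3 correlated with arrays 1 and 2 of the other genotype by -0.29 to -0.24. The reported values come from the fit without this block, and the exact tests also leave the replicate number out. Other settings were the block, moderation with a trend and robust to outliers, unmoderated variance, array weights, median centring, another quantile normalization, omission of the 25% lowest signals, omission of each array, no fold threshold and, added after the data were seen, all listed loci and the mesophyll sum without *RBCS1A*.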

Additional observations from a re-analysis of the deposited data

How the results depend on the processing

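The count of genes past the threshold was 2 higher and 1 lower under every alternative that kept the fold threshold, except without the second *naa20* array, where *NDA2* also passed and 3 were higher. With any fold 5 of the 10 were higher, and over all probe sets 4611 were higher and 4836 lower. In the list of mitochondrial dysfunction genes 6 passed as higher with all listed loci, and with single arrays left out 0 to 1 of the chaperone and protease genes did. With single arrays left out *AOX1C* ranged from -0.033 to 0.26, *NAC017* from -0.049 to 0.0072, *UCP2* from -0.052 to 0.061, *GAMMACA1* (*GAMMA CA1*) from -0.040 to 0.072, *PRODH1* from -0.24 to 0.040 and *SHR*, a root marker, from -0.12 to 0.15, so none of these has a settled direction. With array weights *SHR* was at -0.040. With ordinary variance per gene adjusted p was 0.0911 for *NDA2* and 0.0888 for *UPOX*, and with array weights 0.0591 for *UPOX*. The replicate number as a block moved only the calls of *UPOX* (0.0647) and *NAC013* (0.027) among the genes named. It gave 1392 higher and 1417 lower probe sets past the threshold. *AOX1B* and *WRKY63* were not tested without the lowest signals, as they fell under that limit. The limit was set on the mean over all 6 arrays. *AOX1D* stayed in through its *naa20* signals, with percentile 46.6 over all arrays and 22.2 in wildtype. That setting is therefore no check of *AOX1D*. Low signals limit *AOX1B*, *AOX1C* and *WRKY63*, and the wildtype levels of *AOX1D* and *OM66* (*OM66* at percentile 25.2 of all probe sets). Among the 6 mitochondrial dysfunction loci past the threshold, AT2G41730 lay at percentile 3.92 in wildtype, so its fold difference is limited as well.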
